A study of Mus musculus with 9 samples.

Results

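The dual-specificity MAP kinase phosphatases remove phosphate from both the threonine and the tyrosine of the activation loop of MAP kinases, the ERK, JNK and p38 enzymes that carry signals from the membrane to the nucleus. The set followed here was Dusp1, Dusp2, Dusp4, Dusp5, Dusp6, Dusp7, Dusp8, Dusp10, Dusp14 and Dusp16, 10 genes chosen by name, and every array probe whose RefSeq identifier maps to one of these symbols was read on its own. Probes were found for 9 of the 10 genes, 1 probe each and 2 for Dusp14, which makes 10 of the 41174 probes on the array. No probe was matched to Dusp5, which is not analysed here. All 10 probes passed the filter on dim signal and were among the 27780 probes tested. The Dusp16 probe passed only through the bicuculline and KCl groups, where it is higher, since it was well above background on 1 of 3 control arrays.

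As background, these enzymes are usually sorted by where they sit and which kinase they prefer. Dusp1, Dusp2, Dusp4 and Dusp5 are nuclear and are made on demand as immediate-early or delayed-early genes. Dusp6 and Dusp7 are cytoplasmic and prefer ERK, Dusp8, Dusp10 and Dusp16 prefer JNK and p38, and Dusp14 is a small atypical phosphatase without the docking domain of the others. In neurons, synaptic activity and calcium entry drive ERK signalling, and several of these phosphatases act as feedback inhibitors of it.

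The cells were cortical neurons of C57bl/6 mouse embryos at embryonic day 15, kept for 12 days in culture. The 3 groups were untreated cultures, cultures given 25 µM bicuculline and cultures given 50 mM KCl, both agents for 6 h, with 3 arrays a group. Bicuculline blocks GABA-A receptors and so releases network firing, whereas raised KCl depolarises the cells directly. The labels give no genotype, transgene or sex for any group and do not say whether the 3 samples of a group came from separate cultures, so every p-value measures array-to-array spread that may be only technical.

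The probes read transcript levels and not promoters. The sequence upstream of some of the genes is shown because CREs, AP-1 sites, EGR sites and the CArG box are known elements of activity-dependent genes. Windows of 250 bases before to 50 bases after the start were held for 9 of the 10 genes in a RefSeq table of build GRCm38.p6, all but Dusp4. The 250 bases before the start are printed below, 5′ to 3′ on the gene's strand, for the 2 genes whose window holds a full CRE (the cyclic AMP response element, letters TGACGTCA) and for Dusp2, the nuclear phosphatase that was lower with both agents. Capitals mark every match on either strand to the CRE or its core TGACG, to the E-box CACGTG and to the EGR site GCGNGGGCG.
Dusp1 (chr17:26508473-26508722, - strand): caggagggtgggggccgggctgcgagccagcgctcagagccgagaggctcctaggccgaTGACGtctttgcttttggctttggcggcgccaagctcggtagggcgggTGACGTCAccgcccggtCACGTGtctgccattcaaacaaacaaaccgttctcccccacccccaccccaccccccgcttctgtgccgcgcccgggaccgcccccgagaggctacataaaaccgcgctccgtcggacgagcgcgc
Dusp8 (chr7:142095285-142095534, - strand): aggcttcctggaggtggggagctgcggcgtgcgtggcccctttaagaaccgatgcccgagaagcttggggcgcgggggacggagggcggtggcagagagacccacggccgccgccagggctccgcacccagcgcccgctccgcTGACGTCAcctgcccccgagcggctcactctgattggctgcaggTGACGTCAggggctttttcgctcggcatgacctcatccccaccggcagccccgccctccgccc
Dusp2 (chr2:127335909-127336158, + strand): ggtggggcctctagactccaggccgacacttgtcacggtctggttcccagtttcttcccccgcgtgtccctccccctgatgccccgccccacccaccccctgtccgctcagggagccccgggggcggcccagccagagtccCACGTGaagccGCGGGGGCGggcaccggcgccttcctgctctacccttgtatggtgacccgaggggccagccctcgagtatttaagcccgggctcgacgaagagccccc

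The Dusp1 sequence holds 1 full CRE and, closer to the start, an E-box. The Dusp8 sequence holds 2 full CREs. The Dusp2 sequence holds an E-box followed by an EGR site and no CRE. Of all 32851 windows in the table, 1.79% held a full CRE, against 2 of 9 windows of these phosphatases. The core, which also lies inside every full CRE, was in 20.8% of all windows and in 5 of 9 here (Dusp1, Dusp2, Dusp5, Dusp8 and Dusp16). An E-box was in 7.15% of all windows and in 2 of 9 here (Dusp1 and Dusp2), and an EGR site was in 5.55% and in 2 of 9 (Dusp2 and Dusp16). The CArG box of the serum response element was in 1.63% of all windows and, among these genes, in that of Dusp5. The AP-1 letters TGANTCA were in 7.81% of all windows and in 0 of 9 here. These matches describe letters only, and the promoters of Dusp1 and Dusp8 are set beside the measured levels again below.

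Across the whole series, between 65.0% and 75.9% of the features of an array were well above background, 0 were saturated, and the median SD between replicates over all probes tested was 0.075 on the log2 scale. Levels are given as the processed signal in percent of the 75th percentile of the same array, so that a value can be compared between arrays for 1 probe but not between probes. Changes are differences of log2 values with the standard error of limma's fit over all 9 arrays, and a probe was called when its Benjamini-Hochberg adjusted p over all 27780 probes was under 0.05. Of all probes tested, bicuculline gave 17.4% called higher and 22.5% called lower than control, and KCl gave 36.3% called higher and 32.9% called lower. The slides separated the groups in part: slide 1 held control 1 and 2 and bicuculline 1 and 2, slide 2 held control 3, bicuculline 3 and KCl 1 and 2, and slide 3 held KCl 3 alone.

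Bicuculline raised 6 of the 10 probes (Dusp1, Dusp4, Dusp6, Dusp8, Dusp10 and Dusp16), lowered 2 (Dusp2 and Dusp7) and left both Dusp14 probes uncalled. Read against the 17.4% of all probes called higher and the 22.5% called lower, the median change over the 10 probes was 0.52 on the log2 scale, and that over all probes was -0.02. KCl raised 7 of the 10 probes (Dusp1, Dusp4, Dusp6, Dusp10, Dusp16 and both of Dusp14), lowered the same 2 and left Dusp8 uncalled, against 36.3% and 32.9% of all probes, with a median of 0.66 beside 0.05 over all probes. Both comparisons use the same 3 control arrays. A change of at least 2-fold was called for 3 of the 10 probes with bicuculline, all higher, and for 6 with KCl, 4 higher and 2 lower. Among all probes tested, 2.01% were called at least 2-fold higher and 0.493% at least 2-fold lower with bicuculline, and 7.16% and 3.09% with KCl. Dusp16, which passed the filter only through the treated groups, is in all these counts of higher probes and in the medians. A filter for signal well above background on all 9 arrays leaves it out. The counts were then 5 higher and 2 lower with bicuculline, and 6 and 2 with KCl.

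**Figure D1:**
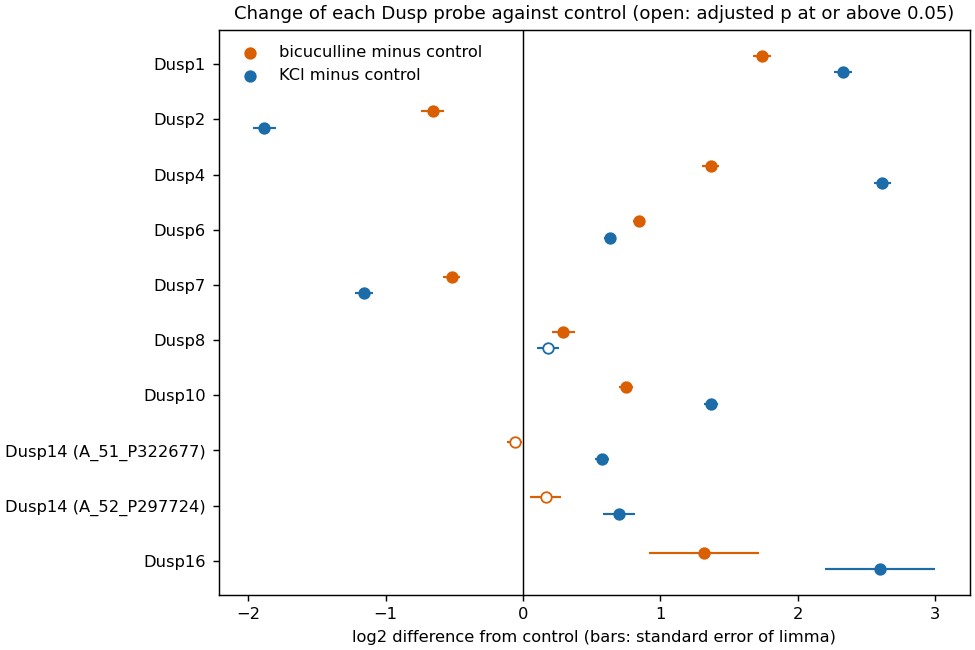
Change of each Dusp probe against control on the log2 scale, with bicuculline in orange and KCl in blue. Points are limma estimates over 3 arrays a group, bars are standard errors, and open points missed the adjusted p of 0.05. Dusp1, Dusp4, Dusp10 and Dusp16 lie to the right of 0 and Dusp2 and Dusp7 to the left with both agents, with the KCl point farther out in each case.

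Dusp1 encodes MKP-1, the inducible nuclear phosphatase of p38, JNK and ERK. Its probe read 126%, 125% and 112% of the 75th percentile on control 1 to 3, 434%, 398% and 377% with bicuculline, and 605%, 603% and 611% with KCl. The 3 groups did not overlap, and the KCl arrays were almost level with each other. The rise was 1.74 ± 0.06 (log2, SE, n = 3), or 3.34-fold, with bicuculline (limma, adjusted p = 1.1e-06) and 2.33 ± 0.06, or 5.03-fold, with KCl (adjusted p = 6.9e-08). By the size of its change Dusp1 stood at rank 209 of the 27780 probes with bicuculline and at rank 321 with KCl.

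Dusp4 encodes MKP-2, another inducible nuclear phosphatase. It read 38.2%, 40.2% and 39.7% in control, 92.7%, 110.4% and 101.8% with bicuculline, and 234%, 249% and 241% with KCl. Each KCl array was above each bicuculline array, and each of these above each control array. Bicuculline raised it by 1.37 ± 0.06 (log2, SE), or 2.58-fold (limma, adjusted p = 3.1e-06), and KCl by 2.62 ± 0.06, or 6.13-fold (adjusted p = 3.9e-08). By size the Dusp4 change had rank 362 among all probes with bicuculline and rank 233 with KCl.

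Dusp2 encodes PAC-1, also nuclear and inducible in immune cells, and it moved the other way. Its probe read 38.8%, 40.7% and 39.8% in control, 26.4%, 24.2% and 25.0% with bicuculline, and 9.33%, 11.7% and 11.5% with KCl. The order of the groups was therefore the reverse of that of Dusp1 and Dusp4, again with no overlap. The fall was -0.66 ± 0.08 (log2, SE) with bicuculline (limma, adjusted p = 6e-04) and -1.88 ± 0.08, a 3.69-fold lower level, with KCl (adjusted p = 6.5e-07). With normexp background correction and the 75th percentile, neither limma call held (-0.58, adjusted p = 0.81, and -0.87, adjusted p = 0.17), since on KCl 1 the level of this probe became 49.7% in place of 9.33%. On that array 13 spots carried a local background above 1000 and up to 58774, and with those set to the array's median background KCl 1 read 15.0% for Dusp2 and both calls returned.

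Of the nuclear phosphatases with a probe, then, Dusp1 and Dusp4 rose and Dusp2 fell with both agents. The plot of array values for each probe shows how tightly the 3 arrays of a group lie together for these genes.

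**Figure D2:**
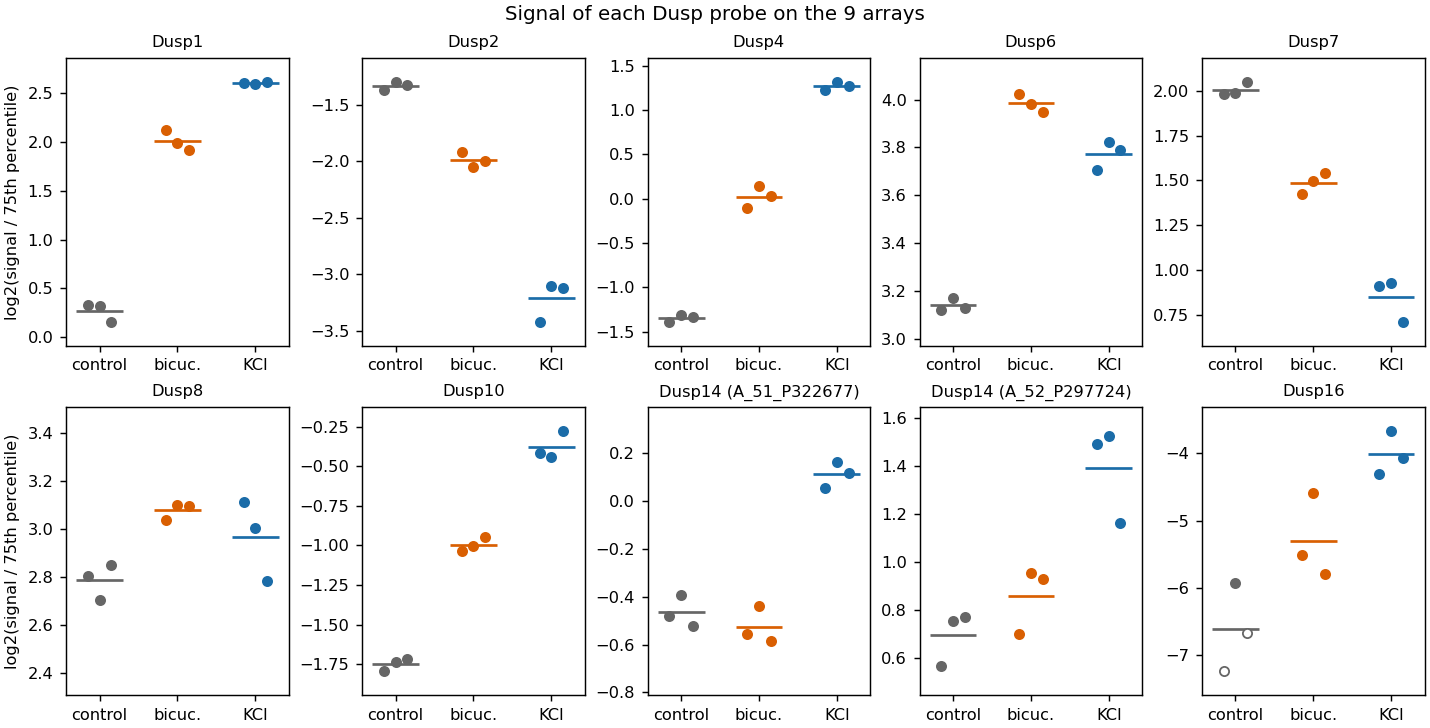
Signal of each Dusp probe on the 9 arrays as log2 of its ratio to the array's 75th percentile, with 1 panel and 1 scale a probe. Points are arrays, open where the probe was not well above background, and lines are group means. Dusp1 and Dusp4 climb from control to bicuculline to KCl, Dusp2 and Dusp7 descend in the same order, and the Dusp16 arrays spread most within a group, with 2 open control points.

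The cytoplasmic ERK phosphatases split in direction. Dusp6 encodes MKP-3, a feedback inhibitor that ERK signalling itself induces. It ranged from 871% to 902% in control, from 1541% to 1626% with bicuculline and from 1303% to 1417% with KCl, so bicuculline gave the highest level and the groups did not overlap. The rise was 0.84 ± 0.04 (log2, SE) with bicuculline (limma, adjusted p = 4.4e-06) and 0.63 ± 0.04 with KCl (adjusted p = 4.9e-06). Under spike-in scaling the KCl rise was 0.41 (limma, adjusted p = 0.0058), and with normexp and the 75th percentile it was 0.47 and not called (adjusted p = 0.081). It was called again with the extreme local background of KCl 1 replaced.

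Dusp7, which encodes MKP-X, fell. Its probe read 396%, 396% and 414% in control, 268%, 282% and 291% with bicuculline, and 188%, 190.1% and 163% with KCl. All bicuculline arrays lay between the control and the KCl arrays. The change was -0.52 ± 0.06 (log2, SE) with bicuculline (limma, adjusted p = 0.00047) and -1.16 ± 0.06, a 2.23-fold lower level, with KCl (adjusted p = 1.9e-06). The KCl array on slide 3 was the lowest, and within slide 2 alone the KCl difference was -1.13 (2 KCl arrays, 1 control array).

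Among the JNK and p38 phosphatases, Dusp10 (MKP-5) rose in steps. It read 28.9%, 30.0% and 30.4% in control, 48.7%, 49.8% and 51.9% with bicuculline, and 74.9%, 73.5% and 82.4% with KCl. The groups did not overlap. The rise was 0.75 ± 0.05 (log2, SE) with bicuculline (limma, adjusted p = 2.2e-05) and 1.37 ± 0.05, or 2.58-fold, with KCl (adjusted p = 2.8e-07).

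Dusp16 encodes MKP-7, a JNK phosphatase that shuttles between nucleus and cytoplasm, and its probe was dim. It read 0.66%, 1.64% and 0.98% in control, 2.20%, 4.17% and 1.80% with bicuculline, and 5.08%, 7.86% and 5.98% with KCl. Of the control arrays 1 of 3 was well above background, and all 6 others were. The groups did not overlap, but the lowest bicuculline array was close to the highest control array. The difference was 2.60 ± 0.40 (log2, SE) with KCl (limma, adjusted p = 0.00062), called in all 21 other settings that gave it a value, and it rests on controls near the background. Its size was 0.85 with normexp and quantile normalization and 1.27 with normexp and extreme local background replaced. The bicuculline difference of 1.32 ± 0.40 passed narrowly (limma, adjusted p = 0.033) and was lost in 12 of 22 other settings, where the adjusted p ranged up to 1. These include leaving out control 1 (0.1), control 3 (0.081), bicuculline 1 (0.059), bicuculline 2 (0.094) or KCl 3 (0.051), and slide as a block (0.056).

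Dusp8, a JNK phosphatase that is abundant in brain and has 2 CREs in its upstream sequence, changed little. Its probe read 698%, 651% and 721% in control, 820.4%, 857% and 854% with bicuculline, and 865%, 802% and 687% with KCl. All bicuculline arrays were above all control arrays, whereas KCl 3 fell among the controls. Bicuculline raised it by 0.29 ± 0.08 (log2, SE; limma, adjusted p = 0.024). That call was lost without control 1 (0.057), control 2 (0.078), bicuculline 2 (0.071) or bicuculline 3 (0.069), with no filter on dim probes (0.053), under spike-in scaling (0.11), with normexp and the 75th percentile (0.39) and, at an adjusted p that rounds to 0.05, with the replicate number as a block over 9 arrays. The KCl difference was 0.18 with a 95% interval from -0.01 to 0.37 (limma, adjusted p = 0.084), and without KCl 3 it was 0.27 (adjusted p = 0.0057). With slide as a block it was 0.23 (adjusted p = 0.027). Dusp1, the other gene with a full CRE upstream, rose more than 3-fold with each agent, so the letters went with very different sizes of change.

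Dusp14, the atypical phosphatase also known as MKP-6, was the one gene read by 2 probes. Probe A_51_P322677 read 71.7%, 76.2% and 69.7% in control, 68.0%, 73.7% and 66.7% with bicuculline, and 103.9%, 112.0% and 108.2% with KCl. Probe A_52_P297724 read 148.0%, 168% and 170.4% in control, 162%, 193% and 190.3% with bicuculline, and 281%, 287% and 224% with KCl. Under spike-in scaling the KCl rise was 0.35 on the first probe and 0.47 on the second (limma, adjusted p = 0.0091 and 0.0022). On both probes every KCl array was above every other array, while control and bicuculline arrays were mixed. The KCl rise was 0.57 ± 0.05 (log2, SE) on the first probe (limma, adjusted p = 3.6e-05) and 0.70 ± 0.11 on the other (adjusted p = 0.00088). The bicuculline difference was -0.06 with a 95% interval from -0.19 to 0.06 on the first probe (limma, adjusted p = 0.41) and 0.16 with an interval from -0.10 to 0.43 on the other (adjusted p = 0.31). The signs of these uncalled differences disagree, and with the replicate number as a block over the 6 control and bicuculline arrays the second probe was called (adjusted p = 0.029), the first not (adjusted p = 0.2).

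Set directly against each other, KCl gave higher levels than bicuculline on 6 of the 10 probes (Dusp1, Dusp4, Dusp10, Dusp16 and both of Dusp14) and lower levels on 3 (Dusp2, Dusp6 and Dusp7). Among all probes tested 34.6% were called higher and 26% lower in this comparison, with a median of 0.08 beside 0.56 over the 10 probes. Where both agents moved a gene the same way, KCl moved it farther for Dusp1, Dusp2, Dusp4, Dusp7, Dusp10 and Dusp16 and less far for Dusp6. Called changes were larger with KCl over the whole array as well. Their median size over all probes was 0.47 with KCl and 0.31 with bicuculline on the log2 scale.

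The difference between KCl and bicuculline was 1.25 (log2) for Dusp4 (limma, adjusted p = 3.3e-06), 0.62 for Dusp10 (adjusted p = 3.3e-05) and 0.59 for Dusp1 (adjusted p = 0.00013). For Dusp16 it was 1.28 (limma, adjusted p = 0.025), a call lost without bicuculline 1 (0.076), bicuculline 3 (0.077), KCl 2 (0.078) or KCl 3 (0.056) and with slide as a block (0.064). Dusp14, called higher with KCl and not called with bicuculline, differed by 0.64 on its first probe (limma, adjusted p = 3.7e-05) and by 0.53 on its second (adjusted p = 0.0047). In the other direction, Dusp2 was lower with KCl by -1.22 (limma, adjusted p = 1.3e-05) and Dusp7 by -0.64 (adjusted p = 8.5e-05). Dusp6 was the member on which bicuculline gave the higher level of a gene that both agents raised, at -0.21 for KCl minus bicuculline (limma, adjusted p = 0.0032). For Dusp8 the difference was -0.11 with a 95% interval from -0.30 to 0.08 (limma, adjusted p = 0.27), so no order of the agents could be given. Under median scaling, spike-in scaling and normexp with quantile normalization it was called lower (-0.23, -0.34 and -0.23). Spike-in scaling lowers every KCl value by the same amount and left the difference at 0.37 for Dusp1, 0.39 for Dusp10, 0.41 and 0.31 for the Dusp14 probes and -0.44 for Dusp6, all still called. With normexp and the 75th percentile 5 of these calls were lost for Dusp1, Dusp2, Dusp6, the second Dusp14 probe and Dusp16, and with extreme local background replaced the counts were again 6 higher and 3 lower.

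Ordered by level, KCl stood above bicuculline and bicuculline above control for Dusp1, Dusp4, Dusp10 and Dusp16, with every step called, though for Dusp16 both steps next to bicuculline were the calls lost above. Dusp2 and Dusp7 had the reverse order with every step called. Dusp6 had bicuculline first, then KCl, then control, with both steps called. Dusp8 showed the same order of means as Dusp6, but neither step between neighbours was called. For Dusp14 KCl stood above the other groups on both probes, and control and bicuculline were not called apart. The share of all probes with each of these orders was not counted.

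Because KCl 1 and 2 shared slide 2 with 1 control and 1 bicuculline array, the KCl differences could be read within that slide. There KCl minus control was 2.44 for Dusp1, 2.60 for Dusp4, -1.93 for Dusp2, 1.29 for Dusp10 and 2.69 for Dusp16 on the log2 scale. Bicuculline minus control was 1.73 within slide 1 and 1.75 within slide 2 for Dusp1, 1.37 and 1.36 for Dusp4, and -0.65 and -0.67 for Dusp2. For Dusp16 it was 1.54 within slide 1 and 0.88 within slide 2, the widest gap between slides of any of the 10 probes.

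Median and spike-in scaling shift every probe of an array by the same amount, whereas quantile normalization does not. The median KCl change over all probes was 0.05 with the 75th percentile, -0.05 with quantile normalization, -0.11 with median scaling and -0.18 with spike-in scaling. The split of all KCl calls moved with it, from 10094 higher and 9151 lower with the 75th percentile to 7907 and 10855 with quantile normalization, 6349 and 11538 with median scaling and 4804 and 11464 with spike-in scaling. The counts of the 10 probes called with KCl were 7 higher and 2 lower under each of these 3 scalings as with the 75th percentile, and Dusp8 changed sign, to -0.05, under spike-in scaling. With normexp and the 75th percentile the median KCl change over all probes went the other way, to 0.29.

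**Figure D3:**
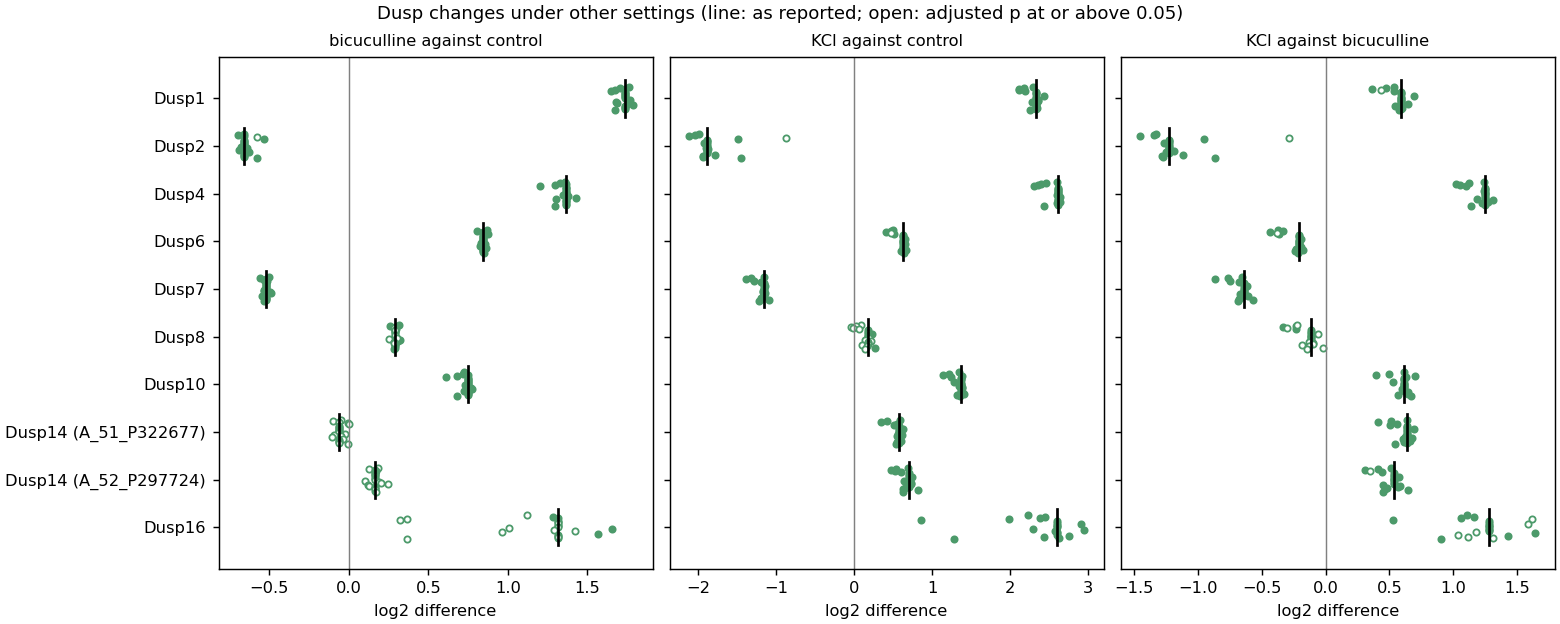
Log2 difference of each Dusp probe under every other setting tried, with 1 panel a comparison. Vertical lines are the values reported above, points are the other settings, and open points missed the adjusted p of 0.05. The points of Dusp1, Dusp4, Dusp7 and Dusp10 stay on their side of 0 in every setting, whereas those of Dusp8 with KCl and of the first Dusp14 probe with bicuculline cross it.

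The rest of the MAP kinase pathway was read through 104 genes in 9 lists by role, of which 93 were tested, each through its brightest probe. In genes rather than probes, bicuculline called 17.4% of all 14062 genes higher and 27% lower, and KCl 35.8% higher and 36% lower. Probes of some genes disagree in sign with the brightest one: with KCl these included Dusp15, Dusp19, Mapk8, Mapk10, Map3k9, Il17rd, Nf1 and Myc among the genes called, and with bicuculline Dusp11, Mapk8, Map3k9 and Il17rd. Over the 93 genes bicuculline gave 26 higher and 23 lower, and KCl 48 higher and 26 lower, with medians of 0.05 and 0.17 beside -0.03 and 0.02 over all genes. The KCl split depends on the scaling, with 39 higher and 30 lower under quantile normalization, 30 and 30 under median scaling and 27 and 30 under spike-in scaling. KCl against bicuculline called 42 of the 93 genes higher and 18 lower, beside 36.1% and 28.8% of all genes, and 11 higher and 30 lower under spike-in scaling.

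The list of other inhibitors of Ras-ERK signalling holds the Sprouty and Spred proteins, which bind components upstream of ERK, and related genes such as Errfi1, which blocks the EGF receptor. With bicuculline 8 of its 13 genes rose and 1, Il17rd, fell by 0.46 on the log2 scale on its brightest probe, while its second probe read 0.08. With KCl 9 rose and 2 fell (Rasa1 by 0.38 and, on its brightest probe, Il17rd by 0.22). The second Il17rd probe read 0.72 with KCl, so the direction of this gene is not settled. Errfi1 rose by 0.55 ± 0.03 (log2, SE) with bicuculline (limma, adjusted p = 7.8e-06) and by 1.56 ± 0.03 with KCl (adjusted p = 1.8e-08). Spry1 rose by 0.49 ± 0.06 and 1.25 ± 0.06 (limma, adjusted p = 0.00049 and 9.2e-07), and Spred1 by 0.59 ± 0.04 and 1.16 ± 0.04 (9.9e-06 and 9e-08). The list medians were 0.41 with bicuculline and 0.44 with KCl.

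Among 11 nuclear factors and targets of ERK, bicuculline raised 5 (Fos, Fosl1, Ier2, Etv5 and Elk3) and lowered 2 (Egr1 and Myc), and KCl raised 7 and lowered the same 2. The KCl value of Myc was -0.13 on its brightest probe, and its other probes read from -0.11 to 0.38. Fos, the immediate-early AP-1 subunit, rose by 2.76 ± 0.04 (log2, SE) with bicuculline (limma, adjusted p = 5.6e-09) and by 4.47 ± 0.04 with KCl (adjusted p = 5.4e-10). Ier2 rose by 1.19 ± 0.06 with bicuculline and 0.89 ± 0.06 with KCl (limma, adjusted p = 3e-06 and 3.8e-06), and like Dusp6 it was lower with KCl than with bicuculline (-0.30, adjusted p = 0.0025). Egr1, an early ERK target, was lower at 6 h with both agents, by 0.59 and 0.63 on the log2 scale (limma, adjusted p = 5.9e-06 and 1.1e-06). Fosl1 was above background on 1 of 3 control arrays, so its differences of 1.61 and 2.66 rest on a dim control.

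The phosphatases outside the set showed no common direction. Of 13 other dual-specificity phosphatases, bicuculline raised 1 (Dusp11, an RNA phosphatase, by 0.35) and lowered 3 (Dusp18, Styx and Dusp26), and KCl raised 6 and lowered 6. The largest KCl changes in the list were 1.06 ± 0.04 for Dusp11 (log2, SE; limma, adjusted p = 3.3e-07), -1.10 ± 0.06 for Dusp12 (adjusted p = 9.8e-07) and 0.64 ± 0.09 for Dusp3 (adjusted p = 0.00026). Further probes of Dusp11 read from -0.06 to 0.18 with bicuculline and from 0.24 to 0.65 with KCl, and its bicuculline call was lost under spike-in scaling (limma, adjusted p = 0.051) and with normexp and the 75th percentile (0.097). Dusp9, the third cytoplasmic ERK phosphatase beside Dusp6 and Dusp7, was looked at after its values were seen, because its probes differ. Its brightest probe read 20.3% to 24.1% in control, 21.7% to 26.5% with bicuculline and 27.3% to 35.4% with KCl. Its second, dim probe was not well above background on any control array (0.58% to 0.67%), so it has only a bound in control. It read 2.29% to 3.24% with bicuculline and 1.81% to 4.92% with KCl, where KCl 1 (1.81%) was not well above background either.

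Of the tyrosine phosphatases that act on MAP kinases, Ptprr fell with both agents (-0.19 and -0.32) and Ptpn5, known as STEP, narrowly passed as lower with bicuculline (-0.15; limma, adjusted p = 0.029). That call was lost without control 2 (0.084), control 3 (0.091), bicuculline 1 (0.057), bicuculline 2 (0.07) or bicuculline 3 (0.083), under median scaling (0.067) and spike-in scaling (0.35), and in all 3 normexp settings (0.057 to 0.68). The KCl value of Ptpn5 was 0.05 (limma, adjusted p = 0.32) and turned to -0.11 under median scaling, -0.17 under spike-in scaling and -0.01 with normexp and the 75th percentile.

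The kinases that these phosphatases act on were mixed in direction. Of 13 MAP kinases bicuculline raised 2 (Mapk4 and Mapk6, both atypical kinases) and lowered 6, and KCl raised 8 and lowered 3 (Mapk14, Mapk7 and Mapk8). Mapk8 read -0.27 with KCl on its brightest probe but 0.11 to 0.24 on its other probes. Mapk4 rose by 0.94 ± 0.06 (log2, SE) with bicuculline and 0.66 ± 0.06 with KCl (limma, adjusted p = 1e-05 and 2.2e-05). Mapk14, which encodes p38 alpha, fell by 0.39 and 0.68 on the log2 scale (limma, adjusted p = 8e-05 and 1.1e-06). Mapk13 rose by 0.82 ± 0.21 with KCl (limma, adjusted p = 0.0083). Mapk15, above background on 2 of 3 controls, narrowly passed at 1.15 ± 0.43 with KCl (limma, adjusted p = 0.043). That call was lost without control 1 (0.78, adjusted p = 0.14), control 2 (0.1), bicuculline 2 (0.062), KCl 1 (0.12) or KCl 2 (0.11). It was also lost with quantile normalization (0.75, adjusted p = 0.066), with normexp and quantile normalization (0.24, adjusted p = 0.072) or the 75th percentile (0.15), with slide as a block (0.63, adjusted p = 0.067), with no filter (0.068), with the 2 groups alone (0.052) and with the replicate block, where it rounds to 0.05.

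Upstream, 1 of 7 MAP kinase kinases rose with bicuculline (Map2k3, an activator of p38) and 3 fell (Map2k5, Map2k6 and Map2k7), while with KCl 2 rose (Map2k1 and Map2k2, the activators of ERK) and 5 fell (Map2k3, Map2k4, Map2k5, Map2k6 and Map2k7). Map2k3 changed by 0.24 ± 0.06 with bicuculline (log2, SE; limma, adjusted p = 0.011) and by -0.56 ± 0.06 with KCl (adjusted p = 5.6e-05), and KCl minus bicuculline was -0.80 (adjusted p = 1.3e-05). The bicuculline call was lost under median scaling (0.21, adjusted p = 0.066) and spike-in scaling (0.24, adjusted p = 0.18). Map2k5 was lower by 0.34 and by 0.47 on the log2 scale, and Map2k6 by 0.33 and by 0.14.

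Of 16 MAP kinase kinase kinases, bicuculline raised 5 (Map3k9, Map3k5, Map3k13, Map3k2 and Araf) and lowered 2 (Map3k12 and Map3k1), and KCl raised 6 and lowered 4 (Map3k12, Map3k3, Map3k11 and Map3k14). Map3k5, the stress kinase ASK1, rose by 0.82 ± 0.04 and 1.46 ± 0.04 (log2, SE; limma, adjusted p = 2.6e-06 and 5.2e-08). Map3k9 rose by 1.18 and 2.03 on its brightest probe, but its other probe read -0.05 and -0.47, so the gene's direction is not settled. Map3k13 rose by 0.46 and 0.63. These sizes rest on the brightest probe, and other probes of 2 genes read larger changes. For Map3k2 they read from 0.24 to 0.83 with bicuculline and from 0.48 to 3.11 with KCl, beside 0.29 and 0.23. For Braf they read from 0.90 to 1.19 with KCl, beside 0.20.

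Among 7 scaffolds, which hold the kinases together, bicuculline lowered Lamtor1 (-0.20) and Mapk8ip2 (-0.18), and KCl raised 5, led by Ksr1 at 0.86 ± 0.12 (limma, adjusted p = 0.00038), with Mapk8ip1 at 0.47 and Mapk8ip3 at 0.30. The Mapk8ip1 call (limma, adjusted p = 0.026) was lost under median scaling (0.31, adjusted p = 0.1), spike-in scaling (0.24, adjusted p = 0.16) and normexp with the 75th percentile (0.11), with slide as a block (0.17), and without control 1 (0.054), control 2 (0.076), KCl 1 (0.067) or KCl 3 (0.068). The Mapk8ip3 call was lost under median and spike-in scaling (0.14 and 0.07) and with normexp and the 75th percentile (0.06), and its value turned to -0.02 under quantile normalization and to -0.07 with normexp and quantile normalization. Of 11 kinases that MAP kinases activate, bicuculline raised 4 (Rps6ka3, Rps6ka6, Mknk2 and Mapkapk5) and lowered 2 (Rps6ka4 and Rps6ka5), and KCl raised 5 and lowered 3. Rps6ka3, which encodes the ERK-activated kinase RSK2, rose by 1.25 ± 0.06 and 1.77 ± 0.06 (log2, SE; limma, adjusted p = 3.7e-06 and 1.7e-07), and Rps6ka6 by 0.67 and 1.19. Rps6ka5, the nuclear kinase MSK1, fell by 0.28 and 0.94 on the log2 scale, though with normexp and the 75th percentile its KCl value was 0.07. With extreme local background replaced, Rps6ka5 was again called lower with KCl. Its bicuculline call (limma, adjusted p = 0.02) was lost without control 1 (0.06), control 2 (0.064), bicuculline 1 (0.068) or bicuculline 3 (0.056), with quantile normalization (0.066), spike-in scaling (0.087), and normexp with the 75th percentile before and after extreme background was replaced (1 and 0.082).

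**Figure D4:**
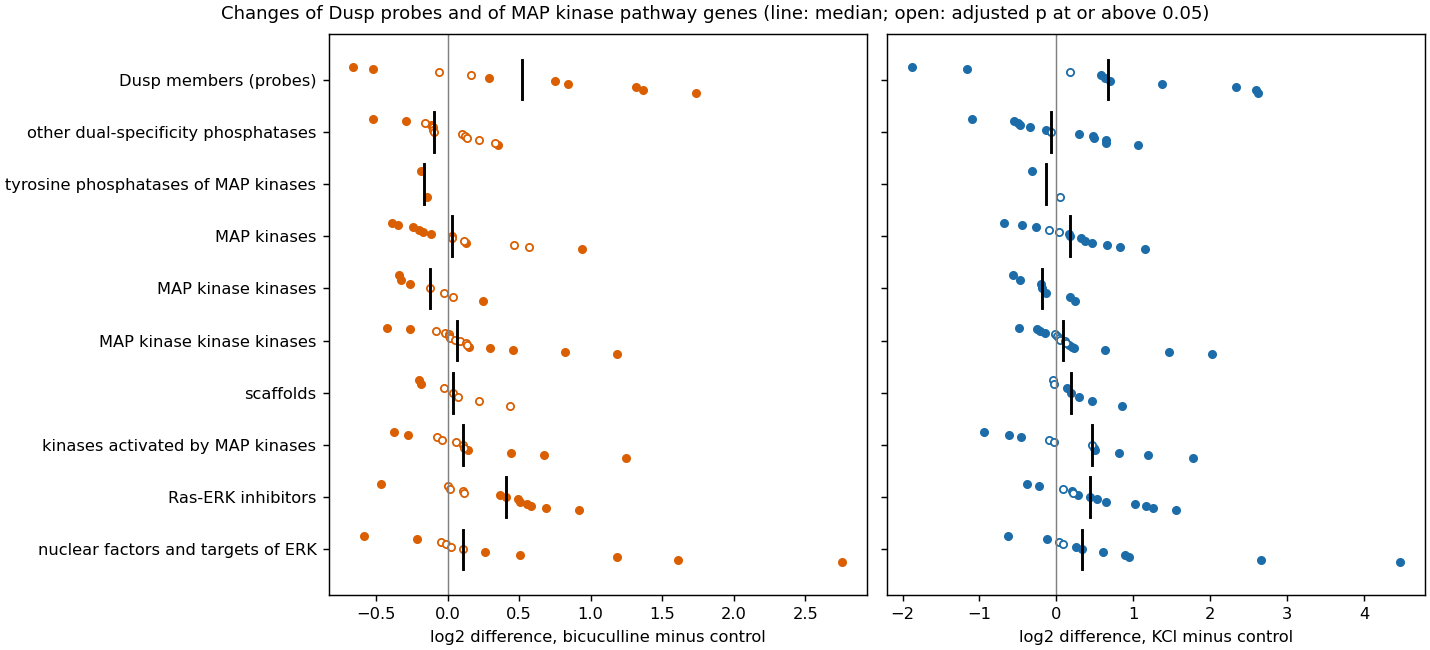
Log2 change against control of the Dusp probes and of each gene tested in the 9 MAP kinase pathway lists (brightest probe), with bicuculline on the left and KCl on the right. Points are limma estimates over 3 arrays a group, open where the adjusted p was 0.05 or above, and lines are list medians. The Ras-ERK inhibitors lie mostly to the right of 0, with medians of 0.41 and 0.44, and the Dusp probes have medians of 0.52 and 0.66.

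The genes whose course over the 9 arrays was closest to that of a member, by the root mean square difference of log2 values centred on each gene's mean, were Lhx5 (0.083), Rab39 (0.11) and the activity-induced kinase gene Sik1 (0.12) for Dusp1, and Osbpl8 (0.10), Grasp (0.11) and Bves (0.11) for Dusp4. For Dusp10 they were Gmeb2 (0.039), Sos1 (0.058) and Cntnap5c (0.058), and for Dusp7 Prorp (0.062), Msh3 (0.066) and Nup155 (0.069). For Dusp2 they were Rbm11 (0.10), Pigw (0.11) and Mtrf1 (0.12). For Dusp16 the nearest were Angptl2 (0.38), 9130008F23Rik (0.40) and Dusp4 (0.41), a looser likeness than for the 5 others. The SD between Dusp16 arrays was 0.65 in control and 0.63 with bicuculline (log2), and such spread enters this measure. These likenesses are descriptions over 9 arrays that share their groups and scaling.

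The cultures held more than neurons by their transcripts. All 12 neuronal and all 10 astrocyte markers were above background on every array, as were 8 of 12 markers of microglia, 9 of 10 of oligodendrocyte lineage, 8 of 12 of vascular cells and 6 of 6 of cycling cells. Pecam1, Cdh5, Cldn5 and Tek, the defining endothelial markers, did not pass the filter, and Tmem119, P2ry12, Itgam and Cd68 of microglia were not tested either, 1 of these 4 having no named probe. A sum over markers weighs its brightest probes most. The summed level of the vascular list was 2431% to 2558% of the 75th percentile in control, 2388% to 2626% with bicuculline and 4289% to 4754% with KCl, where the median change was 0.30 (log2). That of microglial markers was 368% to 385% in control, 314% to 469% with bicuculline and 475% to 700.4% with KCl, with 5 of the 8 genes tested called higher with KCl in each of these lists, and 1 vascular gene called lower. Oligodendrocyte markers summed to 3272% to 3398% in control, 3132% to 3258% with bicuculline and 3729.7% to 3791% with KCl, with 7 of 9 called higher and 2 lower with KCl. Neuronal markers summed to 16276% to 17262% in control, 19111% to 20152% with bicuculline and 20027% to 20738% with KCl. Of these 12 genes, 4 were called higher and 3 lower with bicuculline, and 8 higher and 1 lower with KCl. Astrocyte markers summed to 15297% to 16551%, 15338% to 15617% and 17361% to 18267% in the same order. Of these 10 genes, 0 were called higher and 4 lower with bicuculline, and 4 higher and 2 lower with KCl. Markers of cycling cells summed to 2691% to 2758%, 2840% to 2922% and 3093% to 3271%. Yet of these 6 genes, 1 was called higher and 2 lower with bicuculline, and 2 higher and 4 lower with KCl. In such bulk samples fewer cells of a type and less RNA per cell cannot be told apart, and the part of these shifts in the phosphatase levels was not tested.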

How the data were processed

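RNA of 9 samples, 100 ng each, was labelled with cyanine 3 and hybridised to Agilent 4x44k mouse arrays, per the labels' protocols. The authors deposited scanner files written by Feature Extraction of Agilent (10.7.3.1 in the file headers, 10.5.1.1 in the submitters' processing notes). Their processed signal intensity is background-subtracted and detrended per the file headers, and is not normalized between arrays. The deposited series values equalled it on all 45018 features of every array. It was set to log2, less the 75th percentile of each array over 43379 non-control spots. Control spots and outlier spots were left out, and spots of 1 probe were averaged. A probe was tested if it was well above background on every array of 1 group or more and had values on 2 or more arrays in every group. Of 41174 probes, 26888 had 1 gene symbol through RefSeq (GRCm38.p6 table). limma 3.58.1 in R 4.3.3 was fitted to all 9 arrays (6 residual degrees of freedom), two-sided, with Benjamini-Hochberg adjustment over all 27780 probes, and was tested on simulated data. For genes, the brightest probe was used, over 14062 genes. The number of arrays limits the precision.

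Members, lists and alternatives were chosen with earlier results of these data known. Named in full were members called with a log2 change of at least 1 against control or called with 1 agent and not with the other, then the 3 list genes with the largest called change, counts of 5 or fewer, and for each member past that size the 3 nearest genes. Alternatives covered scaling, background correction, filter, outlier spots, prior, slide, replicate block, groups fitted and each array left out. Same-numbered control and bicuculline arrays deviated together (r = 0.34, 0.21 and 0.67 for numbers 1 to 3). KCl arrays did not deviate together with the same number of either other group (r from -0.48 to -0.06). Each control and bicuculline pair shared a slide, so number and slide cannot be fully told apart. The reported fit held no pairing, and the number was used only as a block in the alternatives.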

Additional observations from a re-analysis of the deposited data

How the results depend on the processing

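Leaving out each array in turn gave 4 to 6 Dusp probes higher and 2 to 2 lower with bicuculline, 7 to 8 and 2 to 2 with KCl, and 5 to 6 and 3 to 3 for KCl against bicuculline. For the MAP kinase pathway lists the ranges were 24 to 28 and 17 to 24, 42 to 49 and 21 to 26, and 37 to 43 and 17 to 21 in the same order. With normexp and the 75th percentile, Dusp probes lower were 1 with bicuculline and 1 with KCl, and KCl against bicuculline gave 3 higher and 1 lower. The pathway lists then had 10 higher and 4 lower with bicuculline, 22 and 9 with KCl, and 13 and 4 for KCl against bicuculline. With the extreme local background of KCl 1 replaced, an alternative chosen after seeing the data, the Dusp counts were 5 and 2, 7 and 2, and 6 and 3, Dusp16 with bicuculline remaining uncalled (0.37, adjusted p = 0.13). Spike-in scaling, on 7 probes, gave 8 pathway genes lower with bicuculline, 27 higher with KCl, and 11 higher and 30 lower for KCl against bicuculline. Median scaling gave 30 higher with KCl and 22 higher for KCl against bicuculline.

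Over all probes, bicuculline gave 4835 higher and 6262 lower, but 2671 and 2176 with spike-in scaling and 679 and 350 with normexp and the 75th percentile. KCl gave 10094 and 9151, but 3312 and 2800 with that normexp setting and 11467 and 7158 with extreme background replaced. KCl against bicuculline gave 9623 and 7222, but 7116 and 8851 with quantile normalization, 5210 and 8884 with median scaling, 2872 and 9503 with spike-in scaling, 6773 and 8228 with normexp and quantile normalization, 1731 and 1332 with normexp and the 75th percentile, and 11443 and 5313 with extreme background replaced.

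Some values changed sign, and not only uncalled or small ones. Among those called as reported, Rps6ka5 was -0.94 with KCl and -0.67 for KCl against bicuculline (limma, adjusted p = 1.3e-05 and 0.00015). Mapk8ip3 was 0.30 with KCl (limma, adjusted p = 0.0037). For KCl against bicuculline, Mapk4 was -0.28, Ptpn5 0.20 and Map2k6 0.19 (limma, adjusted p = 0.004, 0.0051 and 0.0087). The others were uncalled. The values after the change follow. With bicuculline, the first Dusp14 probe was 0.0037 with normexp and quantile normalization, and Mapk8ip3 ranged from -0.0799 to 0.0386 as each array was left out (0.0064 without control 2, 0.0386 without bicuculline 3). With KCl, Dusp8 was -0.0452 with spike-in scaling and -0.0136 with normexp and the 75th percentile. Ptpn5 was -0.1085 with median scaling, -0.1747 with spike-in scaling and -0.0058 with normexp. Mapk8ip3 was -0.0183 with quantile normalization and -0.0733 with normexp and quantile normalization, and Rps6ka5 was 0.0695 with normexp and the 75th percentile. For KCl against bicuculline, spike-in scaling gave -0.0289 for Ptpn5, -0.0378 for Map2k6, -0.0554 for Map3k13 and -0.1929 for Mapk8ip1. Normexp and the 75th percentile gave 0.0254 for Mapk4, 0.0763 for Map2k5, 0.3111 for Rps6ka5 and -0.0248 for Mapk8ip1. Mapk8ip1 was also -0.0902 with median scaling, -0.0269 with slide as a block and from -0.1583 (without bicuculline 1) to 0.1992 as each array was left out, and Map2k5 was 0.0235 as the mean of its probes. None of the sign changes seen with normexp and the 75th percentile occurred with extreme local background replaced. The cause of the sign changes was not tested.

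With the replicate number as a block over 9 arrays, bicuculline gave 5 Dusp probes higher and 2 lower, and over the 6 control and bicuculline arrays, a setting chosen after seeing the data, 7 and 2. Of 9 arrays, 3 correlated best with an array of their own number. The block over 6 arrays added calls for the second Dusp14 probe, for Mapk15 (adjusted p = 0.014) and for Dusp12 (adjusted p = 0.03) with bicuculline, and the block over 9 arrays ended that of Dusp8; no other member's call changed with a replicate block. Dim signal limits Dusp16, Fosl1 and Mapk15, whose controls were in part not above background. Ksr1 and Mapk13 were dim too, at 2.00% to 2.62% and 2.38% to 3.09% in control, though well above background on every array.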
